A study of Rattus norvegicus with 48 samples.

Results

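The hepatic response to the CDAA diet after 4 weeks was examined in 16 of the 48 rats of the study, namely 8 animals on CDAA (animals 301 to 308) and 8 on CSAA (animals 101 to 108). These were all animals that the sample labels assign to week 4, and none was left out. CDAA was deficient in choline, supplied L-amino acids in place of protein and contained 1% cholesterol, 31 kcal % fat, 58 kcal % carbohydrate, 11 kcal % protein and 0.17% methionine. CSAA, the choline-supplemented control, was amino acid-defined as well and held 16 kcal % fat, 72 kcal % carbohydrate, 12 kcal % protein and 0.4% methionine. All animals were male Wistar rats that were 6 weeks of age at delivery and were kept in pairs, and the labels do not name the cage mates. Since the diets differed in choline, cholesterol, fat and methionine at once, the effects of these components cannot be told apart. One polyA library per liver was sequenced as single-end reads, and the reads were counted per Ensembl gene.

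Choline is a building block of phosphatidylcholine, the main phospholipid of the particles in which hepatocytes export triglycerides. On a choline-deficient diet this export falters, fat accumulates in hepatocytes, and inflammation and fibrosis follow over weeks, which is why CDAA-fed rats serve as a model of nonalcoholic steatohepatitis. Added cholesterol is known to aggravate the inflammation. Whole liver RNA mixes hepatocytes, which hold most of the RNA, with stellate, Kupffer, endothelial and infiltrating immune cells. A lower value in such bulk samples can mean fewer cells of a type or less RNA per cell, and these cannot be told apart. Genes are listed in the tables by Ensembl identifier, and no table used here paired the identifiers with names, so the response is described by numbers of genes and by 4 identifiers, and the liver label was not checked against marker genes.

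Read totals on genes ranged from 13619274 to 22284359. A difference in depth between the diets did not pass the exact permutation test over 12870 splits (two-sided, p = 0.223, adjusted over 6 tests p = 0.268). All 56 pairs of animals within a diet differed by more than sampling noise, with a chi-square per gene between 16.7 and 193, where about 1 is expected from counting alone. On CDAA 15846 ± 276 (SD, n = 8) genes had at least 1 read, against 15005 ± 298 (SD, n = 8) on CSAA, and this difference passed the exact permutation test (two-sided, adjusted p = 0.000699). One CDAA library stood apart from the other 7. In the library labelled animal 303, 15257 genes had reads, within the CSAA range of 14509 to 15331 and below the range of 15767 to 16148 in the other CDAA livers. Its TMM factor, which corrects for library composition, was 0.827, again within the CSAA range of 0.759 to 0.857, whereas the other CDAA livers lay between 1.04 and 1.17. Its 21836816 reads on genes were within the CDAA range. Results are therefore given with and without this animal.

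Most genes past the thresholds were higher on CDAA. Of 12756 tested genes, 1998 (15.7%) were higher and 545 (4.27%) were lower on CDAA, 2543 (19.9%) in all, at an adj. p value under 0.01 in edgeR's quasi-likelihood test and a change of 2-fold or more in either direction. Higher genes thus made up 78.6% of the changed genes. When the counts were scaled to library size alone, without TMM, the median log2 fold change of all tested genes rose from -0.02 to 0.39 and the share of higher genes to 92.3% (2967 higher, 246 lower). With limma on the deposited RPKM values, which are also scaled to all reads, the share was 91.7%. The direction of single genes with small changes therefore depends on the scaling, and all values below are relative to the TMM-scaled libraries. Without the fold threshold, genes past the adj. p value were balanced, with 3505 higher (27.5%) and 3410 lower (26.7%), and 4372 of these 6915 changed less than 2-fold.

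Effect sizes were larger in the higher than in the lower genes. Among higher genes the median log2 fold change was 1.65 (quartiles 1.31 and 2.24), a 3.15-fold difference, and among lower genes it was -1.35 (quartiles -1.13 and -1.79), a 2.54-fold difference. A change of at least 4-fold was found for 683 higher and 102 lower genes, one of at least 8-fold for 218 and 25, and one of at least 16-fold for 86 and 5. Among the 86 genes with the strongest increase, 29 reached a mean of at least 10 CPM (reads scaled to library size by TMM) on CDAA and 3 reached 100 CPM. Among the higher genes, 30 had at most 3 reads in all 8 CSAA livers together, so that their fold change has no firm upper end, and their mean on CDAA was 2.72 CPM at most. No lower gene was reduced to at most 3 reads over the 8 CDAA livers.

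Higher and lower genes differed in expression level. At a mean under 1 CPM over the 16 livers, 44.7% of 1035 tested genes were higher on CDAA and 3.38% were lower. Genes of this class had to reach 1 CPM in 5 animals of some group to be tested and so tended to enter through a group where they were high, so that these shares are a description and not a property of weakly expressed genes. Between 10 and 100 CPM the shares were 7.38% and 3.03% of 6003 genes. Above 1000 CPM the order was inverted, with 5 of 126 genes (3.97%) higher and 32 (25.4%) lower. In terms of reads, the 1998 higher genes held 1.31 ± 0.0656% (SD, n = 8) of all reads in CSAA livers and 5.55 ± 1.32% (SD, n = 8) in CDAA livers, whereas the 545 lower genes held 17.04 ± 1.02% and 8.29 ± 2.05%. Of the reads lost by the lower genes, 10 genes accounted for 35.5%, and 10 of the higher genes accounted for 31.8% of the gain. The most abundant gene was the same in all 16 livers. Its share of the reads was 13.2 ± 1.00% (SD, n = 8) in CSAA livers and 9.24 ± 1.49% (SD, n = 8) in CDAA livers, and with a log2 fold change of -0.89 ± 0.12 (SE) it passed edgeR's test (adjusted p = 3.86e-08) but missed the fold threshold. Without animal 303 its log2 fold change was -1.04 ± 0.11 (SE, edgeR adjusted p = 1.27e-11), past both thresholds.

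**Figure D1:**
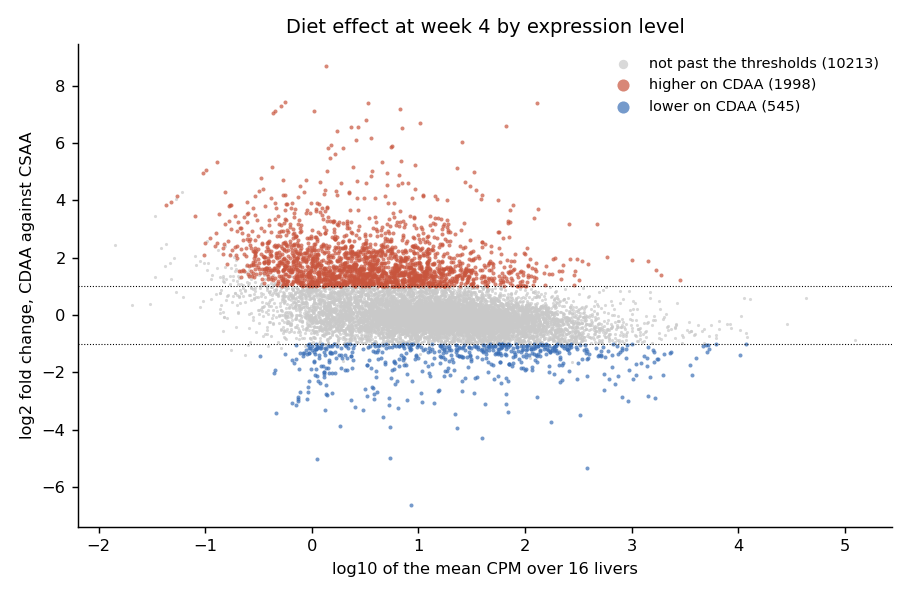
Log2 fold change of CDAA against CSAA at week 4 (vertical axis) by the log10 of the mean CPM over 16 livers (horizontal axis), 1 point per tested gene. The 1998 higher genes (red) lie mostly at low CPM, the 545 lower genes (blue) extend to the abundant genes on the right, and dotted lines mark the fold threshold.

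Changed genes also differed in length, which was derived from the ratio of counts to RPKM. In the quartile of the shortest genes (up to 1493 bases) 13.1% were higher and 6.87% were lower, and in the quartile of the longest genes (from 3443 bases) 17.7% and 2.70%. After removal of the length trend 1935 genes were higher and 545 lower, of which 2339 were shared with the 2543 genes in the same direction. The libraries themselves differed in their length trend, as described below with animal 303. Shares by quartile after its removal are not given here, so these numbers do not show whether the length difference outlasts the trend.

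The values of the diets were fully separated in a minority of the changed genes. Among all tested genes the CPM ranges of the 8 CDAA and 8 CSAA livers did not overlap in 13.3%. Of the higher genes 860 (43.0%) were separated in this way, and of the lower genes 212 (38.9%). Most of the remaining overlap came from a single animal. For another 794 higher genes (39.7%) and 207 lower genes (37.98%) the ranges overlapped only through animal 303, so that 1654 (82.8%) and 419 (76.9%) were separated without it, beside 32.1% of all tested genes. Leaving out any other animal separated far fewer additional genes. Over all tested genes, 2397 overlapped only through animal 303, against 13 to 68 for the other CDAA animals and 64 to 302 for the CSAA animals.

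The largest changes are shown for 4 identifiers at a mean of at least 10 CPM on 1 of the diets, with ranges that did not overlap, as found for 414 higher and 159 lower genes. ENSRNOG00000001466 showed the largest increase. It lay between 0.631 and 3.36 CPM on CSAA (median 1.03, n = 8) and between 35.1 and 463 CPM on CDAA (median 269, n = 8). Animal 303 had the lowest CDAA value, 35.1 CPM, and the next animal had 168 CPM. The log2 fold change was 7.40 ± 0.96 (SE, edgeR adjusted p = 8.62e-09) with animal 303 and 7.56 ± 0.94 (SE) without it. That the groups did not overlap follows from the choice of the 4 identifiers, which also left out genes with animal 303 within the CSAA range.

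ENSRNOG00000055221 was nearly silent in the CSAA livers, with 10 reads over all 8 animals and none in 2 of them. Its values were 0 to 0.345 CPM on CSAA (median 0.0669, n = 8) and 0.609 to 30.3 CPM on CDAA (median 13.1, n = 8). Animal 303 was again lowest on CDAA with 0.609 CPM from 11 reads, close to the highest CSAA value, and the other 7 animals had at least 5.80 CPM. The log2 fold change was 7.19 ± 0.96 (SE, edgeR adjusted p = 1.82e-08), and 7.38 ± 0.91 (SE) without animal 303. With so few reads on CSAA the size of this fold change depends on the method, and it was 5.26 on log2(RPKM + 0.1).

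ENSRNOG00000020444 showed the strongest decrease among such genes. It varied widely on CSAA, from 10.9 to 99.4 CPM (median 32.4, n = 8), and was uniformly low on CDAA, from 1.54 to 6.09 CPM (median 2.19, n = 8). The highest CDAA value was that of animal 303, and the other 7 were at 4.32 CPM or below. The log2 fold change was -3.95 ± 0.46 (SE, edgeR adjusted p = 6.33e-10), and -4.20 ± 0.48 (SE) without animal 303.

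ENSRNOG00000053448 was a counterexample, since animal 303 did not stand out. CSAA livers had 4.07 to 18.7 CPM (median 9.22, n = 8) and CDAA livers 0.154 to 1.77 CPM (median 0.61, n = 8). Animal 303 had 0.665 CPM from 12 reads, in the middle of its group, and the highest CDAA value was that of animal 302. The log2 fold change was -3.90 ± 0.40 (SE, edgeR adjusted p = 3.9e-11) with animal 303 and -3.90 ± 0.42 (SE) without it.

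**Figure D2:**
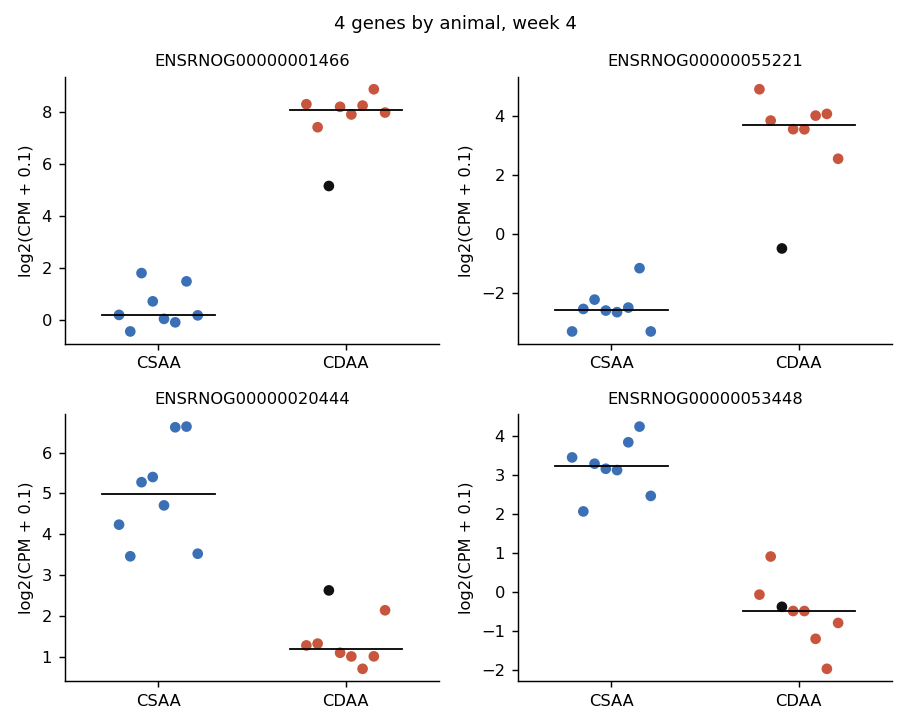
Log2(CPM + 0.1) of 4 genes in each liver at week 4, with CSAA in blue, CDAA in red, animal 303 in black and the group median as a line. Animal 303 lies between the groups for ENSRNOG00000001466, ENSRNOG00000055221 and ENSRNOG00000020444 and within the CDAA group for ENSRNOG00000053448.

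The position of each animal between the diets was summarised as its relative response. For each gene changed in the fit without that animal, its distance from the CSAA mean was divided by the distance of the other CDAA animals from the CSAA mean on the log2 CPM scale, so that 0 stands for CSAA and 1 for the other CDAA livers. The median over 2910 genes was 0.31 in animal 303 (quartiles 0.11 and 0.52). In the other 7 CDAA animals it lay between 1.01 in animal 308 and 1.16 in animal 306 (mean 1.09 ± 0.0513, SD, n = 7). These exceed 1 because animal 303 lowers the mean they are set against. CSAA animals, scored in the same way against the other 7 of their group, lay between -0.0568 in animal 108 and 0.101 in animal 102. Animal 303 was thus outside both groups, and nearer to CSAA.

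**Figure D3:**
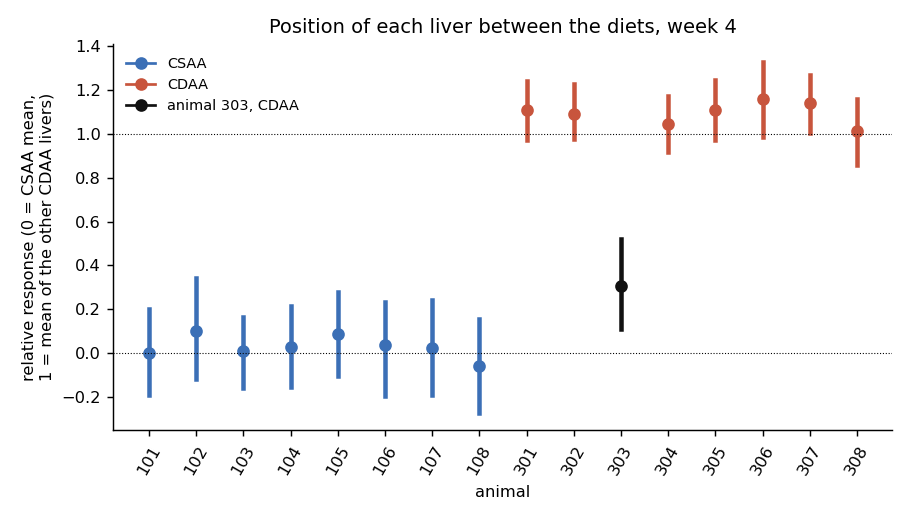
Relative response of each liver at week 4, with the median over changed genes as a point and the quartiles as a bar (blue CSAA, red CDAA, black animal 303). CSAA animals lie between -0.0568 and 0.101, 7 CDAA animals between 1.01 and 1.16, and animal 303 at 0.31.

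The intermediate position of animal 303 was found in most of the changed genes. The relative response was under 0.5 in 73.2% of the 2910 genes, compared with 1.26% to 4.62% of the changed genes in the other CDAA animals. In 1492 genes (51.3%) animal 303 lay within the CSAA range only, in 278 (9.55%) within the range of the other 7 CDAA livers only, in 127 within both, and in 1013 (34.8%) in neither. It was 0.32 over higher genes and 0.25 over lower genes. Genes of different effect size gave similar medians, from 0.31 to 0.36 in higher genes and from 0.24 to 0.32 in lower genes. Level made a larger difference among lower genes, from 0.37 under 10 CPM to 0.20 at 100 CPM or more. On the linear CPM scale the median position was 0.175 over higher and 0.393 over lower genes.

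Few genes went against this pattern. In 226 genes (7.77%) the relative response of animal 303 exceeded 0.8, and 81.1% to 92.1% of genes did so in the other CDAA animals. These 226 genes were mostly of low abundance, with a median of 2.35 CPM against 5.14 CPM for genes with a response between 0.2 and 0.8, and varied more among the CSAA livers (median SD of 0.56 against 0.42 on the log2 scale). A total of 147 of the 226 (65.04%) were also changed in the same direction at week 8, compared with 80.5% of the genes in between. Among all tested genes 18.1% were higher and 12.1% lower at week 8. In 441 genes (15.2%) animal 303 lay beyond the CSAA mean in the opposite direction, which was the case for at most 0.53% of genes in the other CDAA animals. These 441 genes also had a lower median level (3.28 CPM) and a larger median SD on CSAA (0.46) than the genes in between. Low abundance was thus not particular to the 226 genes. The reads of animal 303 mirrored its intermediate position. The genes higher without animal 303 took 2.503% of its reads. The other CDAA livers had 5.76% to 6.77% and CSAA livers 1.31% to 1.52%. The genes lower without it took 31.1%, against 17.3% to 21.1% in the other CDAA and 33.6% to 37.4% in CSAA livers. These lower genes include the most abundant gene, which alone took 12.4% of the reads of animal 303 and 11.8% to 14.3% on CSAA.

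Genes chosen at the later time points, in other animals, also placed animal 303 below the other CDAA livers. Over the 3856 genes changed by diet at week 8, the median shift from the CSAA mean of week 4 in the direction seen at week 8 was 0.25 log2 units in animal 303 and 1.14 to 1.28 in the other 7. Over the 3917 genes of week 12 it was 0.29 and 1.13 to 1.32.

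In its gene length trend animal 303 lay at the edge of a continuous range. Over genes with a small diet effect, the difference between the longest and shortest quartiles in its deviation from the other 15 livers was -0.32 log2 units, the lowest value, next to -0.268 in CSAA animal 101. Other CDAA animals lay between -0.0483 and 0.264, and CSAA animals reached 0.322 in the other direction. In higher genes the relative response of animal 303 was 0.39 in the shorter and 0.27 in the longer genes, and in lower genes 0.20 and 0.34. The most abundant gene took 12.4% of its reads, as on CSAA (11.8% to 14.3%) and above the 7.43% to 9.68% of the other CDAA livers. The part of these measures in the weak response was not tested. In animal 303, 10 genes lay at least 1 log2 unit outside all other livers, against 2 to 12 in the other CDAA and 9 to 70 in the CSAA animals. An animal between the diets is bracketed by the other livers in the changed genes, so this number cannot show whether its library was aberrant.

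Without animal 303 more genes passed, and more of the added genes were lower than higher. The number rose to 2149 higher (16.8%) and 761 lower (5.97%) genes, 2910 (22.8%) in all. The share of higher genes fell from 78.6% to 73.8%. Leaving out any other animal gave 2452 to 2589 genes, with 516 to 580 lower genes. A total of 2537 genes were changed in both fits, all in the same direction, 373 only without animal 303 and 6 only with it. Of the 373 genes, 155 were higher and 218 lower, and 344 had been kept out by the fold threshold and 47 by the adj. p value (some by both). Their median log2 fold change moved from 0.97 to 1.05 in higher and from -0.94 to -1.08 in lower genes, so most had been just below the threshold. At week 8, 97 of the 155 higher genes (62.6%) and 161 of the 218 lower genes (73.9%) were changed in the same direction, beside 18.1% and 12.1% of all tested genes, and at week 12 108 (69.7%) and 173 (79.4%), beside 19.4% and 11.3%.

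**Figure D4:**
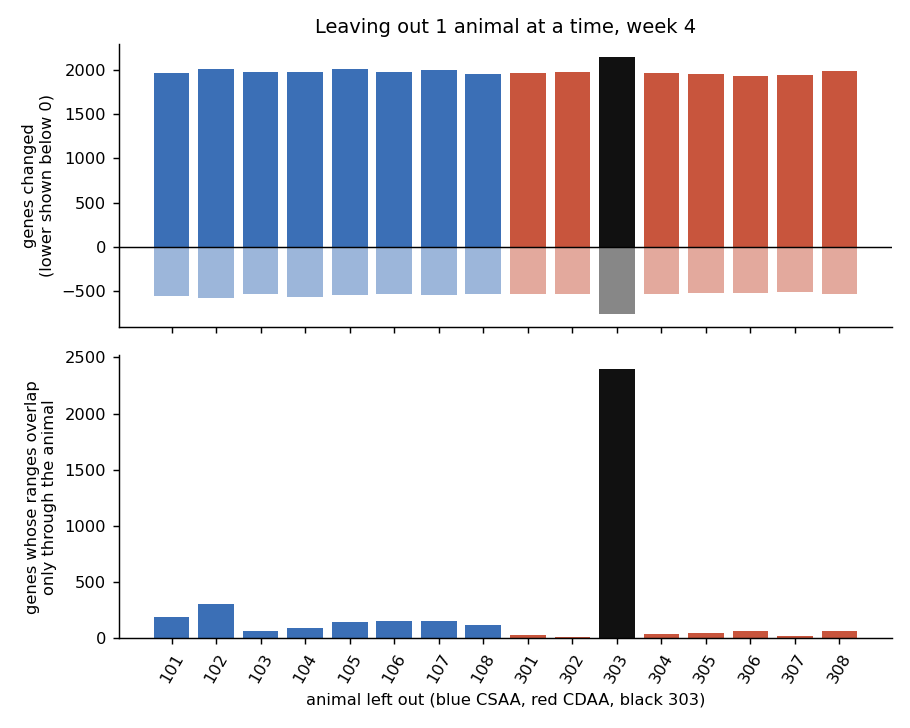
Number of changed genes at week 4 when 1 animal is left out (upper plot, higher genes above and lower genes below 0) and number of tested genes whose diet ranges overlap only through that animal (lower plot). Without animal 303 (black) 2149 genes were higher and 761 lower, and 2397 genes overlapped only through it.

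As a ratio of group means, the effect sizes of lower genes depended more on animal 303. For the 2149 higher genes the median gain in log2 fold change without it was 0.10 (quartiles 0.08 and 0.13), and no gene gained 0.5 or more. For the 761 lower genes the median moved by -0.16 (quartiles -0.25 and -0.10), and 60 genes fell by 0.5 or more further. With any other CDAA animal left out, at most 1 lower gene and no higher gene moved this far. With 1 CSAA animal left out, 2 to 26 higher genes and no lower gene did. Lower genes of at least 8-fold rose in number from 25 to 55 and those of at least 16-fold from 5 to 20. That animal 303 was above the other 7 CDAA animals in these 60 genes follows from their choice, and in 50 it was within the CSAA range. The median CPM of the 60 genes was 35.8 on CSAA, 40.3 in animal 303 and 3.37 in the other 7 CDAA livers. Their median log2 fold change was -2.17 with animal 303 and -3.06 without it. At week 8, 59 of them were lower on CDAA and at week 12 all 60, beside 12.1% and 11.3% of all tested genes. The fold change compares group means of counts, so that 1 high value weighs more in a group that is otherwise low. Leaving out 1 low value of 8 cannot raise such a mean by 0.5 log2 units, so no higher gene could have gained this much. How much of the difference between the directions comes from this scale was not tested. On the log2 CPM scale the relative response of animal 303 was 0.32 over higher and 0.25 over lower genes.

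**Figure D5:**
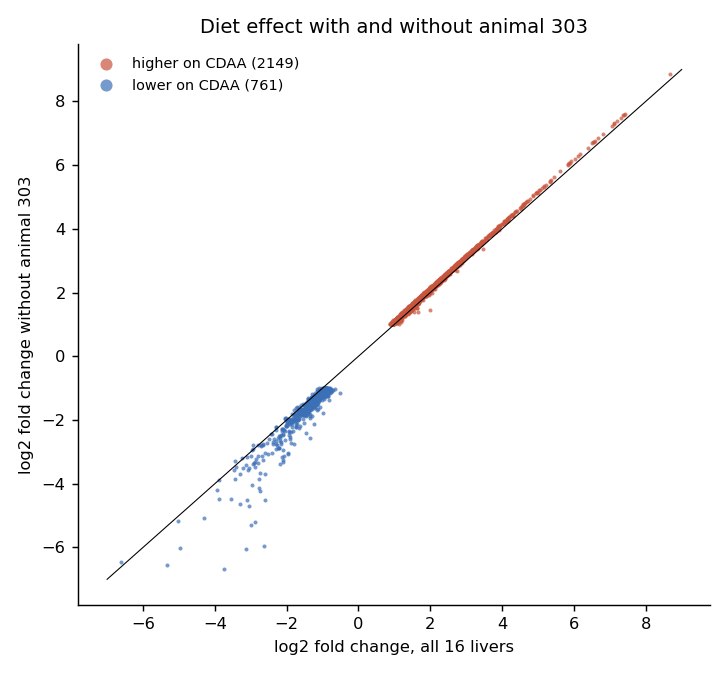
Log2 fold change of CDAA against CSAA at week 4 over all 16 livers (horizontal axis) and without animal 303 (vertical axis) for the 2910 genes changed without it, with the line of equal values. Higher genes (red) stay close to the line, with a median gain of 0.10, and 60 lower genes (blue) lie 0.5 or more below it.

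The spread within the CDAA group was smaller without this animal. Leaving out an animal known to lie far from its group lowers the SD by construction. Over all tested genes the median SD of log2 CPM was 0.27 on CSAA, 0.26 on CDAA and 0.19 on CDAA without animal 303. Among lower genes it was 0.36, 0.45 and 0.26, and among higher genes 0.47, 0.51 and 0.29. The SD was larger on CDAA than on CSAA in 59.4% of the higher, 69.4% of the lower and 41.7% of all tested genes with animal 303. Without it the shares were 18.6%, 36.4% and 21.3%, so that the smaller spread of the 7 remaining CDAA livers was not particular to the changed genes.

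Most changes of week 4 were found again at the later time points, which were tested in other animals. Of the 1998 higher genes 1688 (84.5%) were higher at week 8 and 1739 (87.04%) at week 12, beside 18.1% and 19.4% of all tested genes. Of the 545 lower genes 441 (80.9%) and 443 (81.3%) were lower, beside 12.1% and 11.3% of all tested genes. Only 1 gene was changed in the opposite direction at week 8 and 2 at week 12. For higher genes the median log2 fold change was 1.65, 1.64 and 1.95 at weeks 4, 8 and 12. For lower genes it was -1.35, -1.75 and -1.70. Conversely, 1105 (71.5%) of the genes lower at week 8 and 997 (69.2%) of those lower at week 12 were not changed at week 4, compared with 621 (26.9%) and 736 (29.7%) of the higher genes. Missing the thresholds does not mean that these genes were stable at week 4. The median log2 fold change at week 4 was -0.76 over all genes lower at week 8 and -0.80 over those lower at week 12. By the interaction, the decrease was larger than at week 4 in 306 and 259 of them, or in 175 and 164 without animal 303. Among genes higher at weeks 8 and 12, the effect differed from week 4 in 79 and 224, or in 64 and 195 without animal 303. These genes were chosen by their change at the later week, which favours a larger effect there. The numbers are therefore a description, and those for week 8 also depended on gene length, as given below. Without animal 303 the shares not changed at week 4 were 61.1% and 57.1% for lower and 22.7% and 25.4% for higher genes.

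Differences between the diet effects of 2 time points were tested as interactions in the same edgeR fit. The effect at week 8 differed from that at week 4 in 542 genes (4.25%), 155 with a more positive and 387 with a more negative log2 fold change. That at week 12 differed from week 4 in 643 genes (5.04%), 287 and 356. Without animal 303 421 (3.30%) and 540 (4.23%) genes passed, 277 and 280 of them negative. The number for week 8 also depended on gene length, with 242 genes (140 positive, 102 negative) after removal of the length trend. Among the 545 lower genes of week 4, the decrease was stronger at week 8 in 83 and weaker in 14, and among the 1998 higher genes the increase was stronger in 5 and weaker in 55. At week 12 these numbers were 77 and 18 for lower and 57 and 52 for higher genes. They depended on animal 303. For the 761 lower genes called without it, the decrease was stronger in 58 and weaker in 21 at week 8, and stronger in 48 and weaker in 17 at week 12. For the 2149 higher genes, the increase was stronger in 2 and weaker in 76 at week 8. At week 12 it was stronger in 62 and weaker in 75. All these genes were chosen by their fold change at week 4, which favours weaker changes at the other weeks. The numbers of stronger and weaker genes are therefore a description.

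The 4 identifiers were chosen for extreme log2 fold changes at week 4, which favours smaller values at the other weeks, so their differences between weeks are given as a description. The difference passed the thresholds in 2 of the 4. For ENSRNOG00000001466 the log2 fold change was 2.71 ± 0.73 (SE) at week 8 and 3.97 ± 0.78 (SE) at week 12. The difference to week 4 was -4.69 ± 1.12 (SE) at week 8, which passed the thresholds (edgeR adjusted p = 0.000997), and -3.43 ± 1.12 (SE) at week 12, which did not (edgeR adjusted p = 0.0148). CDAA livers still had at least 136 CPM at week 8, but several CSAA livers were raised. Animals 504, 502, 501 and 503 had 117, 84.7, 21.2 and 8.72 CPM, and the others 3.82 CPM or less. At week 12 CSAA animal 908 had 83.002 CPM and the others 2.32 CPM or less. The CSAA medians were 6.27 CPM at week 8 and 1.35 CPM at week 12.

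For ENSRNOG00000053448 the log2 fold change was -1.43 ± 0.33 (SE) at week 8 and -1.33 ± 0.33 (SE) at week 12. Its differences to week 4 of 2.47 ± 0.51 (SE, edgeR adjusted p = 0.000203) and 2.57 ± 0.52 (SE, adjusted p = 0.000135) passed. CDAA livers rose from a median of 0.61 CPM at week 4 to 3.09 and 2.84 CPM, and CSAA livers had medians of 9.22, 11.8 and 7.18 CPM. ENSRNOG00000055221 had interactions of -3.82 and -4.23 (edgeR adjusted p = 0.0241 and 0.023) and ENSRNOG00000020444 of 1.04 and 1.33 (adjusted p = 0.185 and 0.0811), none of which passed.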

How the data were processed

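Single-end reads of polyA libraries were aligned by the authors with STAR to the rat genome Rnor_6.0. Counts per Ensembl gene, made with featureCounts, were deposited as raw values. The RPKM values, scaled by the authors to gene length and reads, were deposited as well. The strand setting of the counting is not given in the sources used here, and reads of overlapping genes may be shared. Which libraries were pooled for sequencing is not in the labels, so no batch was modelled.

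The 6 combinations of diet and week were fitted together (48 animals) with the quasi-likelihood method of edgeR 4.0.16 (R 4.3.3) after TMM normalization, with Benjamini-Hochberg adjustment. Tested were 12756 of 32662 genes, those that reached 1 CPM in 5 or more animals of any group. Genes with an adj. p value under 0.01 and a log2 fold change of 1 or more in either direction were called changed. CPM values were TMM-scaled. The fit without animal 303 used the other 47 animals, the same genes and the same thresholds. Alternatives were limma-voom (limma 3.58.1), DESeq2 1.42.0, RLE factors, library size alone, no filter, removal of the gene length trend, a test against the fold threshold, limma on log2(RPKM + 0.1), week 4 alone and leaving out each animal. The scripts were tested on simulated counts. Each library was 1 animal. Precision is limited by the variation between animals more than by depth, except for genes with few reads.

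The comparison and its rules were chosen with earlier results of these data known. The identifiers named were the 2 highest and 2 lowest log2 fold changes among changed genes with a mean of at least 10 CPM on 1 diet and ranges that did not overlap. Gene lists, marker genes and promoters were not analysed here, since identifiers were not paired with names.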

Additional observations from a re-analysis of the deposited data

Results flagged for a closer look

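Within groups of 8 livers, 12 measures were screened on each diet for a value set apart from the others by Dixon's criterion. About 1 in 20 such groups holds one by chance. Of the 24 groups 8 did, 6 of them through animal 303. Since this animal was already known as a weak responder and the changed genes were called without it, its values are a description and not evidence beyond chance. On CDAA this animal had the lowest TMM factor (0.827, next 1.04), the fewest genes with reads (15257, next 15767), the largest share of reads on the most abundant gene (12.4%, next 9.68%), the lowest relative response (0.31, next 1.01), the smallest share of reads on higher genes (2.503%, next 5.76%) and the largest on lower genes (31.1%, next 21.1%). These measures describe the same library and are not independent of each other. The share on lower genes includes the most abundant gene.

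The other values set apart were the 0.345 CPM of ENSRNOG00000055221 in animal 107 on CSAA (4 reads, next 0.112 CPM) and the 1.77 CPM of ENSRNOG00000053448 in animal 302 on CDAA (33 reads, next 0.85 CPM). The diet effect on ENSRNOG00000001466 was lower at week 8 than at week 4 by an interaction of -4.69. Its CSAA median was 1.03 CPM at week 4 and 6.27 CPM at week 8, and its CDAA median 269 and 208 CPM. The effect on ENSRNOG00000053448 differed from week 4 by 2.47 at week 8 and by 2.57 at week 12.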

How the results depend on the processing

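The 4 identifiers kept their direction and stayed past the thresholds under all 28 alternatives each. They were chosen for extreme changes in the same counts, so this says little about other genes. The balance of directions over all genes depended on the processing. For week 8 minus week 4 it turned from 155 positive and 387 negative to 140 and 102 after removal of the length trend. With TMM, the excess of higher genes at week 4 was absent without a fold threshold. This balance is tied to the scaling, since the median log2 fold change was -0.02 with TMM and 0.39 with library size alone. No number without a fold threshold is given here for library size alone. Of 254 recomputed values, 237 stayed within the limits set for them (1.5 times for a number of genes) and 17 moved. edgeR's test against the fold threshold left 1031 changed genes (871 higher, 160 lower) at week 4, 0 for week 8 minus week 4 (323 at an unadjusted p under 0.05, 497 changed with limma-voom and 587 with DESeq2) and 12 for week 12 minus week 4. An adj. p value under 0.05 without a fold threshold gave 8240 genes (4119 higher, 4121 lower). Lower genes numbered 246 with library size alone and 232 with RPKM. For week 12 minus week 4, library size alone gave 1014 genes and RPKM 1356, and for week 8 minus week 4 removal of the length trend gave 242. The numbers without animal 303 stayed between 2877 and 3532 under its 6 alternatives. Leaving out 1 animal gave 2452 to 2910 changed genes at week 4, 1930 to 2149 higher and 516 to 761 lower, and without animal 303 the interactions gave 421 and 540. Over lower genes alone the relative response was 0.25 in animal 303, 0.99 in animal 304, 1.20 in animal 307 and 0.95 in animal 308. The cause was not tested. No paired analysis was possible because the diets share no replicate numbers (1 to 8 on CSAA, 17 to 24 on CDAA) and no cage or litter is named. With limma-voom 2494 and with DESeq2 2585 genes were changed at week 4. Of the 2543 genes, 857 higher and 150 lower ones passed in all 10 settings of test, scaling, filter and samples, and 1779 and 439 with each of the 16 animals left out in turn.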
